A study of Mus musculus with 11 samples.

Results

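The comparison set cortex from the infarcted hemisphere 7 days after photothrombosis in mice given levetiracetam against cortex from the same side and time without the drug. It rested on 1 library a side. Of 22377 genes in the table, 13100 had a mean of at least 5 tags scaled to a common library total (CPM) in the 2 libraries and were compared; the other 9277 were below that limit. At the limit, Sod3 lay just inside at 5.36 CPM without and 4.64 CPM with the drug, and Relb just outside at 5.3 and 4.69 CPM. The series held 11 libraries of cap analysis of gene expression (CAGE), which counts short tags from the capped 5′ ends of RNA, made from cortex of male C57BL/6N mice. The lesion was made by lighting a circle 3.5 mm wide over the left parietal lobe with a green LED for 30 minutes after rose bengal at 35 mg/kg, a photosensitive dye that closes the lit vessels. The groups used were a naive cortex, the infarcted and non-infarcted sides at 7 days and at 1 month, each with and without levetiracetam, and both sides at 2 months after 2 weeks of withdrawal from the drug.

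All groups held 1 library, and the number of mice behind a library, pooling, and whether both sides came from the same mice were not given. The labels place levetiracetam at 7 days and at 1 month, while the series' design text describes drinking water with 5 mg/mL for 2 weeks from 1 month after the lesion and 1 week of withdrawal; the labels were followed, and the dose and start of treatment in the 7-day mice are therefore unknown. The design text names mice of 8 to 10 and of 65 to 85 weeks and injections of pentylenetetrazol, a GABA-A receptor blocker, without tying either to a library. With 1 library a group no difference between treated and untreated mice could be tested on this side. Each ratio below is levetiracetam over untreated, with the exact 95% interval that counting alone allows; it says nothing of the spread between mice.

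Levetiracetam is an anti-seizure drug that binds SV2A, a glycoprotein of synaptic vesicles. A week after a photothrombotic stroke the infarct core is normally full of phagocytic microglia and macrophages, with reactive astrocytes and matrix-forming fibroblasts at its rim, while the neutrophils of the first days have mostly been cleared. In a piece of whole cortex the tags of all these cells are mixed, so fewer cells of a type and less RNA per cell cannot be told apart.

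Depth was 16590924 tags in the untreated and 17257308 in the treated library, with 96.5% and 97.3% of them in genes, and 12928291 to 21000367 tags over the 11 libraries. A count of 3 tags, taken as the floor, equalled 0.181 and 0.174 CPM. The cortical identity of both libraries showed in Slc17a7, the vesicular glutamate transporter of cortical excitatory neurons, at 481.0 and 543.1 CPM. The genes of the infarct were present in both: Lyz2, lysozyme of phagocytes, stood at 754.6 and 650.3 CPM against 10.1 CPM in the naive library, and Gfap, the intermediate filament of reactive astrocytes, at 615.3 and 557.6 CPM against 108.5 CPM. Libraries of different times stood apart in genes outside the lesion response: Atp5e, a subunit of ATP synthase, was at 219.1 to 344.8 CPM in the 7-day and 2-month libraries and at 583.7 to 924.5 CPM in the naive and 1-month ones. Both libraries compared belong to the former set, with Atp5e at 344.8 and 261.2 CPM. Which libraries were prepared together is not given, so preparation and time cannot be told apart.

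The 2 libraries were close to each other. Among the 13100 genes, 91% lay within 1.25-fold, against 87% on the non-infarcted side at 7 days and 71.3% on the infarcted side at 1 month. A ratio past 1.5-fold was found for 130 genes (0.992%), 76 higher (0.58%) and 54 lower (0.412%) with levetiracetam, and past 2-fold for 10 genes (0.0763%), 2 higher (0.0153%) and 8 lower (0.0611%). An interval above 1 was found for 26.8% of the genes and one below 1 for 9.51%; after centring on the median of all genes these shares were 12.8% and 16.6%, so the balance turned. The split depended on the scaling: all genes together were shifted by 0.07 on the log2 scale, and after TMM scaling 38 genes were higher and 84 lower, so that 31.1% in place of 58.5% of the genes past 1.5-fold were higher. Scaling by DESeq2 size factors also gave 38 and 84, and centring on the median 36 and 85. The 130 genes were mostly low, with a median level of 8.69 CPM against 31.7 CPM over all genes compared, and 54 of them reached a mean of 10 CPM. Of the 130, 42 had 1 library under 5 CPM, against 239 of all 13100; such genes were compared only through the library where they were high.

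**Figure D1:**
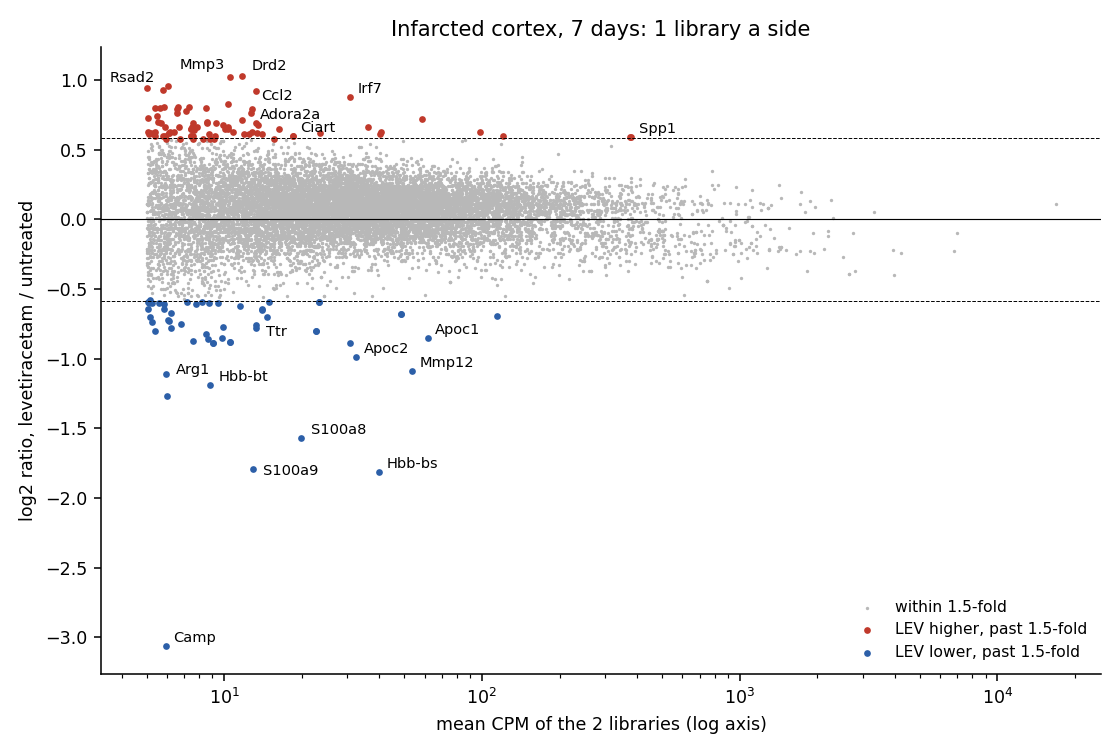
Log2 ratio of levetiracetam over untreated infarcted cortex at 7 days (vertical axis) against the mean CPM of the 2 libraries (log axis); each point is a gene with a mean of at least 5 CPM, and dashed lines mark 1.5-fold. Most points lie between the dashed lines, and the genes farthest below them are Camp, Hbb-bs, S100a9 and S100a8.

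The difference over both sides was the only one that could be tested. A limma fit of log2(CPM + 1) on all 11 libraries, with a term for state and 1 for side, left 4 residual degrees of freedom. It took the variation of state by side as error, so the sides served as repeats, and naive cortex was given the non-infarcted level. Whether both sides came from the same mice is not given, so its p-values do not measure the spread between treated and untreated mice. Of 12888 genes tested for levetiracetam at 7 days over both sides, 1 passed an adjusted p of 0.05 (0.00776%), the haemoglobin gene Hbb-bs, and 522 had an unadjusted p under 0.05. In simulated libraries of this design the fit recovered 32% of genes changed 1.5-fold, 86% of those changed 2-fold and 100% of those changed 4-fold. Those libraries were drawn independently and changed alike on both sides. The shares therefore need not hold where the sides share mice or differ in their response. No other gene named here passed the limma test. Some were under its level limit and were not tested, among them Rsad2, Zbp1, Ifi207, Arg1, Ccl4, Cd4, Cd3d, Alas2 and Slc4a1. What is said of these genes describes 2 libraries.

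The drug's own target and its relatives differed little. Sv2a stood at 107.0 CPM in the untreated and 135.4 CPM in the treated infarcted cortex, a ratio of 1.27 (1.19 to 1.35), and at 136.7 CPM in naive cortex. The untreated value was the lowest of the 11 libraries, the others lying between 129.0 and 157.8 CPM. Sv2b, a paralog found in cortex and hippocampus, was at 270.9 and 301.4 CPM (ratio 1.11, 1.07 to 1.16), and Sv2c, a paralog best known from the basal ganglia, at 19.0 and 23.8 CPM (ratio 1.25, 1.07 to 1.45). On the non-infarcted side Sv2a was at 147.8 and 157.8 CPM (ratio 1.07, 1.01 to 1.13). The limma fit over both sides gave Sv2a a log2 difference of 0.21 with an adjusted p of 0.961.

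The vesicle release list, which holds Sv2a, Sv2b and Sv2c, was shifted in the same direction, Sv2a having the highest ratio in it. None of its 18 genes was past 1.5-fold, and all 18 had an interval above 1, against 26.8% of all genes compared; the median log2 ratio was 0.18, against 0.07 over all genes and 0.13 for the same list on the non-infarcted side. After centring on the median of all genes, 14 of the 18 intervals stayed above 1. The summed level of the list was 8702.6 CPM untreated, the lowest of the 11 libraries, and 9687.3 CPM treated, with 10428.7 CPM in naive cortex. Receptors and channels that shape excitability stood likewise. Of 12 GABA-A receptor subunits 8 had an interval above 1 and none below (median 0.23), of 15 ionotropic glutamate receptor genes 10 and none (median 0.24), and of 21 voltage-gated channel genes 18 and 1 (median 0.16); none was past 1.5-fold. After centring the intervals above 1 were 7 of 12, 7 of 15 and 7 of 21, and the median of the channel list was 0.09. Gabra4, an alpha subunit of extrasynaptic receptors, was at 64.0 and 79.8 CPM (ratio 1.25, 1.15 to 1.35). Kcnq3, a subunit of the M-current potassium channel, was at 32.1 and 40.6 CPM (ratio 1.26, 1.13 to 1.42), both below the 51.4 CPM of naive cortex. Gria1, an AMPA receptor subunit, was at 226.4 and 275.2 CPM (ratio 1.22, 1.16 to 1.27).

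The pair of chloride transporters that sets the sign of GABA signalling was nearly level. Slc12a5, which encodes the chloride exporter KCC2 of mature neurons, was at 328.9 and 358.3 CPM (ratio 1.09, 1.05 to 1.13), and Slc12a2, the importer NKCC1, at 27.4 and 27.5 CPM (ratio 1.0, 0.881 to 1.14). The genes of recent neuronal activity were on balance lower. Of 19 immediate early genes compared, 9 had an interval below 1 and 3 above, with a median of -0.15 and none past 1.5-fold. Arc, a regulator of AMPA receptor traffic, was at 116.6 and 90.7 CPM (ratio 0.778, 0.727 to 0.832) and Nptx2, a secreted organiser of excitatory synapses, at 23.4 and 18.4 CPM (ratio 0.785, 0.675 to 0.913). On the non-infarcted side Arc was at 195.6 and 119.9 CPM, a ratio of 0.613 (0.581 to 0.646). Bdnf, a neurotrophin induced by activity, was at 19.2 and 15.8 CPM (ratio 0.823, 0.697 to 0.97), while Fos was at 13.7 and 14.8 CPM (ratio 1.08, 0.899 to 1.3). Activity genes thus did not all lie on the same side of 1.

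The lowest ratios belonged to genes of neutrophil granules and of blood. Camp, which encodes the cathelicidin of neutrophil granules, was at 10.6 CPM untreated and 1.27 CPM treated, a ratio of 0.12 (0.0734 to 0.188). S100a9 and S100a8 form calprotectin, the main cytosolic protein of neutrophils. S100a9 was at 20.1 and 5.79 CPM (ratio 0.289, 0.229 to 0.362), and S100a8 at 29.8 and 10.0 CPM (ratio 0.337, 0.281 to 0.401). Csf3r, the receptor for granulocyte colony-stimulating factor, was at 16.5 and 14.4 CPM, with an interval of 0.736 to 1.05. Of 4 genes of the list compared, 3 were past 1.5-fold and lower (0.412% of all genes were), and Camp reached the level limit only through the untreated library. Of the 3 others measured, Ngp and Retnlg, both granulocyte genes under the level limit and looked up after the rest were seen, were at 3.07 and 0.637 CPM and at 1.51 and 0.464 CPM, and Elane, the elastase of immature granulocytes, was at 0 in both.

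This was not confined to the infarcted side. In the non-infarcted cortex at 7 days Camp was at 38.5 CPM untreated and 2.82 CPM treated, S100a9 at 54.0 and 6.01 CPM, and S100a8 at 58.8 and 6.96 CPM, so the untreated level was higher opposite the lesion than in it. The summed neutrophil list stood at 81.5 CPM in the untreated and 32.6 CPM in the treated infarcted cortex, a ratio of 0.4 (0.362 to 0.442). On the non-infarcted side it stood at 180.0 and 21.3 CPM, and in the other 7 libraries at 9.29 to 31.9 CPM. The 2 untreated 7-day libraries were therefore the highest of the 11, while the treated infarcted one lay just above the range of those 7 and the treated non-infarcted one within it. Over both sides the log2 difference of Camp was -2.86 by limma with an adjusted p of 0.961. On the recovered tags Camp had an adjusted p of 0.334 by edgeR and of 1.78e-09 by DESeq2. S100a8 and S100a9 had adjusted p-values of 0.242 and 0.43 by DESeq2.

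The starts of the calprotectin genes hold the letters of a TATA box, TATAAA, shown in capitals, which begin at position -30 from the annotated start in S100a8 and at position 0 in S100a9. They are given in GRCm38.p6 from RefSeq, 250 bases before and 50 after the start, 5′ to 3′ on the gene's strand.
S100a8 (chr3:90668821-90669120, + strand): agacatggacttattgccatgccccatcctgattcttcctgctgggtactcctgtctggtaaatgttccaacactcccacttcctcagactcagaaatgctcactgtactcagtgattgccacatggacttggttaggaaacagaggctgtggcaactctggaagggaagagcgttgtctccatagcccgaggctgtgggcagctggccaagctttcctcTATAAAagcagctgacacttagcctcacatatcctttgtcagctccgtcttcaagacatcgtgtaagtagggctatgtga
S100a9 (chr3:90695672-90695971, - strand): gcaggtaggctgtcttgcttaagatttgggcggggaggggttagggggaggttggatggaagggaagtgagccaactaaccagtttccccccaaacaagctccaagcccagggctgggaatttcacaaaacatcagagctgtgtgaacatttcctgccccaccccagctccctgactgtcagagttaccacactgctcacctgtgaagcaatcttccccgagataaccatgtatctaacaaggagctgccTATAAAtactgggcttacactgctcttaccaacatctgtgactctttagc
TATAAA on either strand was found in 5 of 27 promoters of genes past 1.5-fold lower (18.5%), in 9 of 57 of those higher (15.8%) and in 6.76% of 9888 promoters of genes compared.

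Haemoglobin transcripts, carried mainly by red cells, were lower too. Hbb-bs, the adult beta globin of this strain, was at 62.0 CPM untreated and 17.6 CPM treated, a ratio of 0.284 (0.249 to 0.323), and on the non-infarcted side at 84.8 and 25.2 CPM (ratio 0.297, 0.267 to 0.329). Hbb-bs fell by 1.74 on the log2 scale (SE 0.14) over both sides with an adjusted p of 0.00744 by limma. The call was lost when any of the 4 libraries of 7 days or either untreated library of 1 month was left out, no gene then having an adjusted p under 0.0545 by limma (0.0545 to 0.343). In the other libraries it ranged from 131.9 CPM in naive cortex through 62.8 to 82.7 CPM in the 4 libraries of 1 month to 14.9 and 14.0 CPM at 2 months. Both treated 7-day libraries thus lay between the 2-month libraries and the rest. Hbb-bt, a near-identical copy whose tags may be shared out between the genes, was at 12.3 and 5.39 CPM (ratio 0.438, 0.339 to 0.563). Pf4, a platelet and macrophage chemokine, was at 34.9 and 27.6 CPM, while Alas2 and Slc4a1, genes of immature red cells, had at most 1 tag in either library. The summed blood list stood at 109.3 and 50.6 CPM, and its part in the neutrophil result was not tested. Ttr, the transthyretin of choroid plexus, was at 16.8 and 9.79 CPM, with 349.7 CPM in the naive library and 195.3 CPM in the non-infarcted side at 1 month with levetiracetam.

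**Figure D2:**
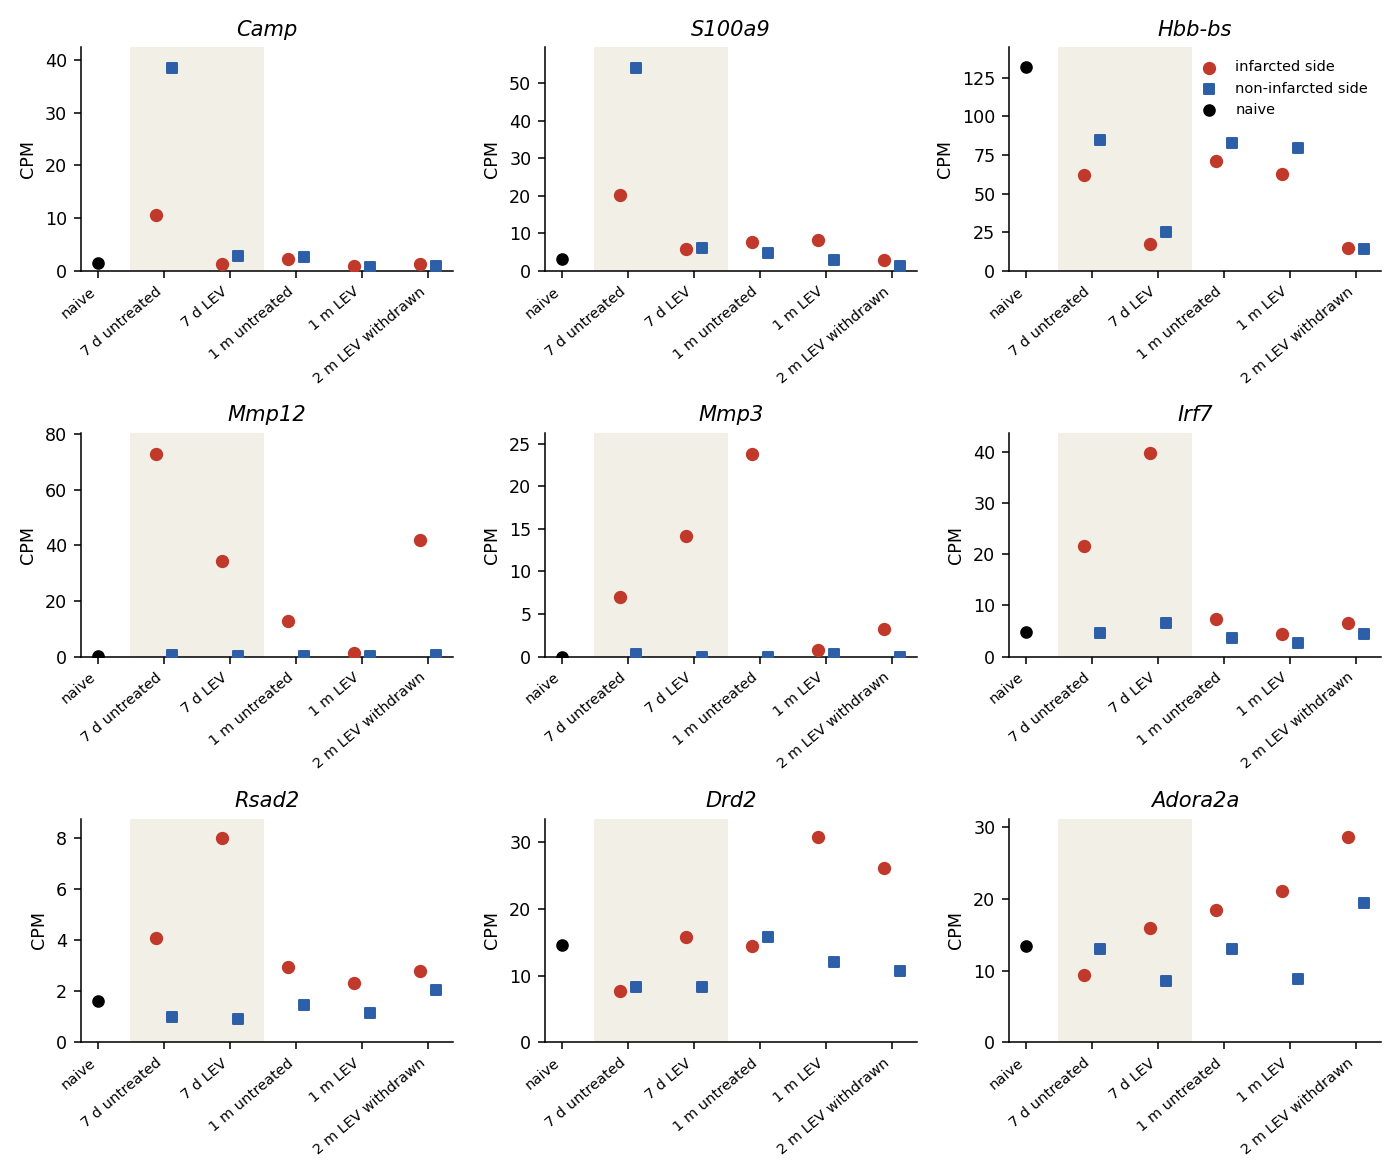
CPM of 9 genes (vertical axes, linear from 0) in each of the 11 libraries (horizontal axis: naive, then the states in order of time), with circles for the infarcted side, squares for the non-infarcted side and a black point for naive cortex; the 7-day libraries are shaded. Camp and S100a9 are high in the untreated 7-day libraries of both sides, and Irf7 and Rsad2 are highest in treated infarcted cortex at 7 days.

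In each of 5 phagocyte lists, those of disease-associated and homeostatic microglia, macrophages, complement and lysosome, more intervals lay below 1 than above, and most gaps were small. Mmp12, the macrophage metalloelastase, was at 72.9 CPM untreated and 34.2 CPM treated (ratio 0.469, 0.424 to 0.518), with at most 0.445 CPM on the non-infarcted side and 0.155 CPM in naive cortex. Arg1, the arginase of alternatively activated macrophages, was at 8.14 and 3.77 CPM (ratio 0.463, 0.339 to 0.627) and under 0.4 CPM in each of the other 9 libraries. Arg1 reached the level limit only through the untreated library. The neighbouring apolipoprotein genes Apoc1 and Apoc2, which are active in lipid-laden macrophages, were at 79.2 and 43.9 CPM (ratio 0.555, 0.506 to 0.607) and at 43.1 and 21.7 CPM (ratio 0.504, 0.444 to 0.572). Apoc4, in the same cluster on chromosome 7, was at 28.9 and 16.6 CPM and shares its tags with an overlapping gene model. All but Apoc1 were near 0 CPM in naive cortex, where Apoc1 stood at 8.82 CPM.

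Of 15 genes of disease-associated microglia compared, 9 had an interval below 1, 3 above, and the median was -0.19. Tyrobp, the signalling adaptor of Trem2, was at 719.7 and 496.1 CPM (ratio 0.689, 0.67 to 0.709), and Lgals3, galectin-3, at 183.4 and 133.2 CPM (ratio 0.727, 0.688 to 0.767). The exception past 1.5-fold was Spp1, osteopontin, at 303.2 CPM untreated and 456.3 CPM treated (ratio 1.5, 1.45 to 1.56); its tags are shared with an overlapping gene model. After TMM scaling or centring Spp1 was under 1.5-fold, at 0.52 on the log2 scale, and Tyrobp was past 1.5-fold and lower. Among 11 homeostatic microglial genes compared, 2 had an interval below 1 and 1 above. Aif1, the actin-bundling protein IBA1, was at 160.8 and 138.1 CPM (ratio 0.859, 0.813 to 0.908), and Csf1r, the survival receptor of microglia, at 127.5 and 139.5 CPM (ratio 1.09, 1.03 to 1.16). Lysosomal genes gave 8 intervals below 1 and 3 above among 14, with Ctsd, cathepsin D, at 1523.1 and 1303.1 CPM. Among 12 complement genes compared 4 had an interval below 1 and 2 above, and C1qb and C1qc, subunits of the initiating complex, were at 537.6 and 434.8 CPM and at 551.1 and 454.4 CPM.

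The untreated library had the highest summed level of the 11 for these phagocyte lists and the lowest for the excitatory neuron, vesicle release, receptor and channel lists. The inhibitory neuron and cortical neuropeptide lists were lowest in the treated library instead, with summed ratios of 0.999 (0.979 to 1.02) and 0.95 (0.931 to 0.969). Disease-associated microglial genes summed to 9126.6 and 8027.2 CPM, a ratio of 0.88 (0.873 to 0.886), and the other 9 libraries to 1648.5 to 4081.5 CPM. Excitatory neuron genes summed to a ratio of 1.14 (1.13 to 1.16). Of 12 compared, 6 had an interval above 1 and 1 below (median 0.17), and 4 and 1 after centring (median 0.1). The gene below was Neurod6, at 31.8 CPM untreated and 26.9 CPM treated (ratio 0.848, 0.747 to 0.963). On the non-infarcted side the ratio was 1.15 for excitatory neuron genes and 0.958 for disease-associated microglial genes. Summed genes of phagocytes and of excitatory neurons thus differed in opposite directions on the infarcted side. The same held on the non-infarcted side, except for homeostatic microglial genes, with a summed ratio of 1.06 there. The share of infarct in each piece of tissue is not given, and its part in the results was not tested.

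Genes of the interferon response went the other way. Of 12 compared, 4 were past 1.5-fold and higher (0.58% of all genes were), 10 had an interval above 1 and none below, and the median was 0.50. After centring on the median of all genes 3 were past 1.5-fold, 9 intervals stayed above 1 and the median was 0.42. Irf7, the transcription factor that amplifies type I interferon production, was at 21.6 CPM untreated and 39.8 CPM treated (ratio 1.84, 1.61 to 2.09), with 2.67 to 7.25 CPM in the other 9 libraries. Rsad2, the antiviral enzyme viperin, was at 4.1 and 8.0 CPM (ratio 1.95, 1.45 to 2.65), so it reached the level limit only through the library where it was high. Ifit1, which binds foreign RNA at its 5′ end, was at 6.57 and 10.6 CPM (ratio 1.61, 1.27 to 2.07). Outside the list, Zbp1, a sensor of Z-form nucleic acid, was at 5.3 and 9.27 CPM (ratio 1.75, 1.34 to 2.29), and Ifi207, of the interferon-inducible p200 family, at 3.44 and 6.61 CPM (ratio 1.92, 1.39 to 2.69). Ifi207 reached the level limit only through the treated library.

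The summed level of the 15 interferon genes was 471.0 CPM untreated and 632.5 CPM treated, a ratio of 1.34 (1.3 to 1.38), and 95.1 to 195.7 CPM in the other 9 libraries. On the non-infarcted side the sum was 137.9 CPM untreated and 131.3 CPM treated (ratio 0.952), and none of 9 genes compared there was past 1.5-fold. Irf7 was higher there too, at 4.61 and 6.49 CPM (ratio 1.41, 1.05 to 1.88), while the median of the 9 was -0.12. At 1 month on the infarcted side the median was -0.23 over 8 genes. MHC class I genes, many of which respond to interferon, showed no such shift: of 9 compared, 2 had an interval above 1 and 1 below, none and 2 after centring, and H2-D1 was at 290.2 and 268.7 CPM (ratio 0.926, 0.889 to 0.964). T cell genes were all below the level limit. Their 8 genes summed to 3.74 CPM, or 62 tags, untreated and 8.81 CPM, or 152 tags, treated (ratio 2.36, 1.74 to 3.22), within the 2.86 to 14.5 CPM of the other 9 libraries. Among them, and chosen after their values were seen, Cd4 was at 1.21 and 3.53 CPM and Cd3d, a chain of the T cell receptor complex, at 0.181 and 0.753 CPM. The T cell sum was higher in the library where the interferon genes were higher, and its part in them was not tested.

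The interferon-stimulated response element, searched as GAAANNGAAA on both strands, was found in 7 of 10 promoters of the interferon list and in 2.8% of the 9888 promoters of genes compared. It was in 5 of 57 promoters of genes past 1.5-fold higher (8.77%) and in 0 of 27 of those lower. Rsad2, Ifit1 and Isg15 are shown with the match in capitals, in GRCm38.p6 from RefSeq and 5′ to 3′; in Rsad2 and Ifit1 the match reads on the reverse strand, so the capitals spell its complement, and in Isg15 overlapping matches form a single run.
Rsad2 (chr12:26456403-26456702, - strand): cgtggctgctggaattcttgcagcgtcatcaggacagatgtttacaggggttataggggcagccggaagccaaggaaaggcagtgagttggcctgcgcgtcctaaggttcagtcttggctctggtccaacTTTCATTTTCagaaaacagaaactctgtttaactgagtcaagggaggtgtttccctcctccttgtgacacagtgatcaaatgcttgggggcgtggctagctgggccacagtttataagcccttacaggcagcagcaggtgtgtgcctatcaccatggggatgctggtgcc
Ifit1 (chr19:34640639-34640938, + strand): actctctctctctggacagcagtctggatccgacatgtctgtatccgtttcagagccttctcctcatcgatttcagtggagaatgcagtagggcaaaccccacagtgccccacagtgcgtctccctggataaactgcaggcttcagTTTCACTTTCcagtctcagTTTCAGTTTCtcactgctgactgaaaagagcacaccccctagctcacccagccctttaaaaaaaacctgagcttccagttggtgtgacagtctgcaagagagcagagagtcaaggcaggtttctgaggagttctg
Isg15 (chr4:156200769-156201068, - strand): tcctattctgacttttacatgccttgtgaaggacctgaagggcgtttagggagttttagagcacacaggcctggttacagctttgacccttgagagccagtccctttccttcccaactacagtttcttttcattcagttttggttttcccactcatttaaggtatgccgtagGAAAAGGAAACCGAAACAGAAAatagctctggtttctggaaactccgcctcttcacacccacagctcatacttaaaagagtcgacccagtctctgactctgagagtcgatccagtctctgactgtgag
Isg15, a ubiquitin-like protein, was at 41.3 and 55.8 CPM (ratio 1.35, 1.22 to 1.49). A match describes these letters and shows no binding.

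**Figure D3:**
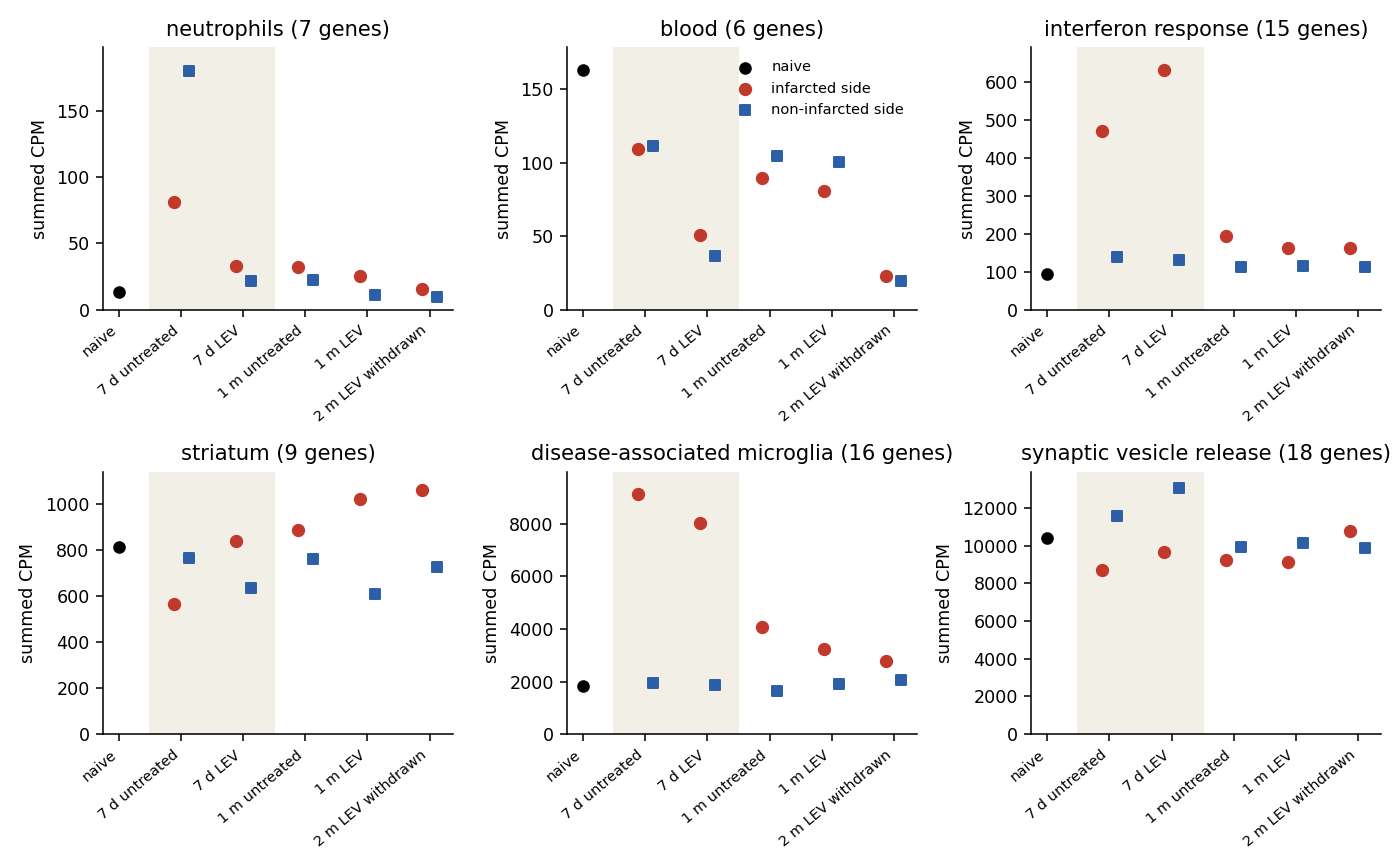
Summed CPM of 6 gene lists (vertical axes, linear from 0) in each of the 11 libraries (horizontal axis as labelled), with circles for the infarcted side, squares for the non-infarcted side and a black point for naive cortex; the 7-day libraries are shaded. The interferon sum is highest in treated infarcted cortex at 632.5 CPM, and the striatum sum is lowest in untreated infarcted cortex at 565.7 CPM.

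Mmp3 and Ccl2 were higher while Mmp12 was lower. Mmp3, stromelysin-1, was at 6.99 CPM untreated and 14.1 CPM treated (ratio 2.02, 1.61 to 2.54), below the 23.8 CPM of the untreated infarcted cortex at 1 month; on the non-infarcted side and in naive cortex it was at or near 0 CPM. Ccl2, the monocyte chemoattractant, was at 9.4 and 16.2 CPM (ratio 1.73, 1.41 to 2.11). Of 10 cytokine and chemokine genes compared, 1 had an interval above 1 and 3 below (median -0.04). Those below included Ccl6 at 24.2 and 17.6 CPM (ratio 0.729, 0.626 to 0.848) and Ccl4 at 7.59 and 5.33 CPM (ratio 0.702, 0.531 to 0.926). Mmp3 and Mmp12 lie in the same cluster of metalloproteinase genes on chromosome 9. The start of Mmp3 holds an AP-1 element, TGANTCA, shown in capitals, and that of Mmp12 holds none in the same window. The element was in 3 of 57 promoters of genes past 1.5-fold higher (5.26%), in 2 of 27 of those lower (7.41%) and in 4.22% of promoters of genes compared.
Mmp3 (chr9:7445572-7445871, + strand): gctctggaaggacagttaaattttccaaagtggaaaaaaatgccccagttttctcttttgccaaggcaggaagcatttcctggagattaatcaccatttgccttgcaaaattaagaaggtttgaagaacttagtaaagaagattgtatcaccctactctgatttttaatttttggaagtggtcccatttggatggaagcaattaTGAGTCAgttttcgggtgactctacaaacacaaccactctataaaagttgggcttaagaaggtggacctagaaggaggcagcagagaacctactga
Matrix genes were slightly higher. Of 15 fibrillar and basement membrane genes 11 had an interval above 1 and none below, none was past 1.5-fold, and the median was 0.23; after centring 7 intervals stayed above 1. Col1a1, a chain of type I collagen, was at 713.5 and 846.6 CPM (ratio 1.19, 1.16 to 1.22) and Bgn, the proteoglycan biglycan, at 86.0 and 105.0 CPM (ratio 1.22, 1.14 to 1.31). On the non-infarcted side Col1a1 was at 68.3 and 20.0 CPM, a ratio of 0.293 (0.26 to 0.329), with 25.4 CPM in naive cortex.

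Astrocyte, myelin and vessel genes differed little. Reactive astrocyte genes gave 2 intervals below 1 and 1 above among 11 compared, and 3 and 1 after centring. Gfap had a ratio of 0.906 (0.881 to 0.932). Lcn2, the lipocalin of reactive astrocytes and neutrophils, was at 10.0 and 6.9 CPM (ratio 0.689, 0.54 to 0.877). Serpina3n, of the same list, was higher at 24.5 and 30.2 CPM (ratio 1.23, 1.08 to 1.4). Kcnj10, the potassium channel Kir4.1 of astrocytes, was at 48.9 and 60.7 CPM (ratio 1.24, 1.13 to 1.36), and Slc1a2, the glutamate transporter GLT-1, at 1179.7 and 1239.3 CPM (ratio 1.05, 1.03 to 1.07). Of 14 myelin genes 8 had an interval below 1 and none above, with Mbp at 2300.2 and 2118.9 CPM (ratio 0.921, 0.908 to 0.935). Ptgds, a prostaglandin synthase of meninges and oligodendrocytes, was at 4495.0 and 3416.3 CPM (ratio 0.76, 0.752 to 0.768), the untreated value being the highest of the 11 libraries.

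Genes that mark striatal projection neurons, which lie beneath the cortex, showed the highest median of any list. All 9 had an interval above 1, also after centring, and 6 were past 1.5-fold, 3 after centring, with a median of 0.60. Drd2, the dopamine D2 receptor, was at 7.72 CPM untreated and 15.8 CPM treated (ratio 2.04, 1.65 to 2.54). Adora2a, the adenosine receptor of the same neurons, was at 9.4 and 15.9 CPM (ratio 1.69, 1.38 to 2.07), and Rgs9, a regulator of G protein signalling, at 28.1 and 44.4 CPM (ratio 1.58, 1.41 to 1.78). Syndig1l, a striatal membrane protein outside the list, was at 9.16 and 17.4 CPM (ratio 1.9, 1.56 to 2.32). On the non-infarcted side the list went the opposite way, with a median of -0.42 and 3 genes past 1.5-fold lower, Adora2a being at 13 and 8.51 CPM.

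The summed level of the 9 genes was 565.7 CPM in the untreated infarcted cortex, the lowest of the 11 libraries, and 839.5 CPM in the treated one, the fourth highest, with 607.5 to 1059.8 CPM in the other 9 and 814.8 CPM in naive cortex. Tac1 and Penk, neuropeptide genes that cortical interneurons share with striatum, were at 14.8 and 22.3 CPM (ratio 1.51, 1.28 to 1.78) and at 97.0 and 141.2 CPM (ratio 1.46, 1.37 to 1.55). Cort, the cortistatin of cortical interneurons, was lower at 17.1 and 11 CPM (ratio 0.642, 0.531 to 0.775). How much striatum each piece of cortex held is not given, and its part in these ratios was not tested.

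**Figure D4:**
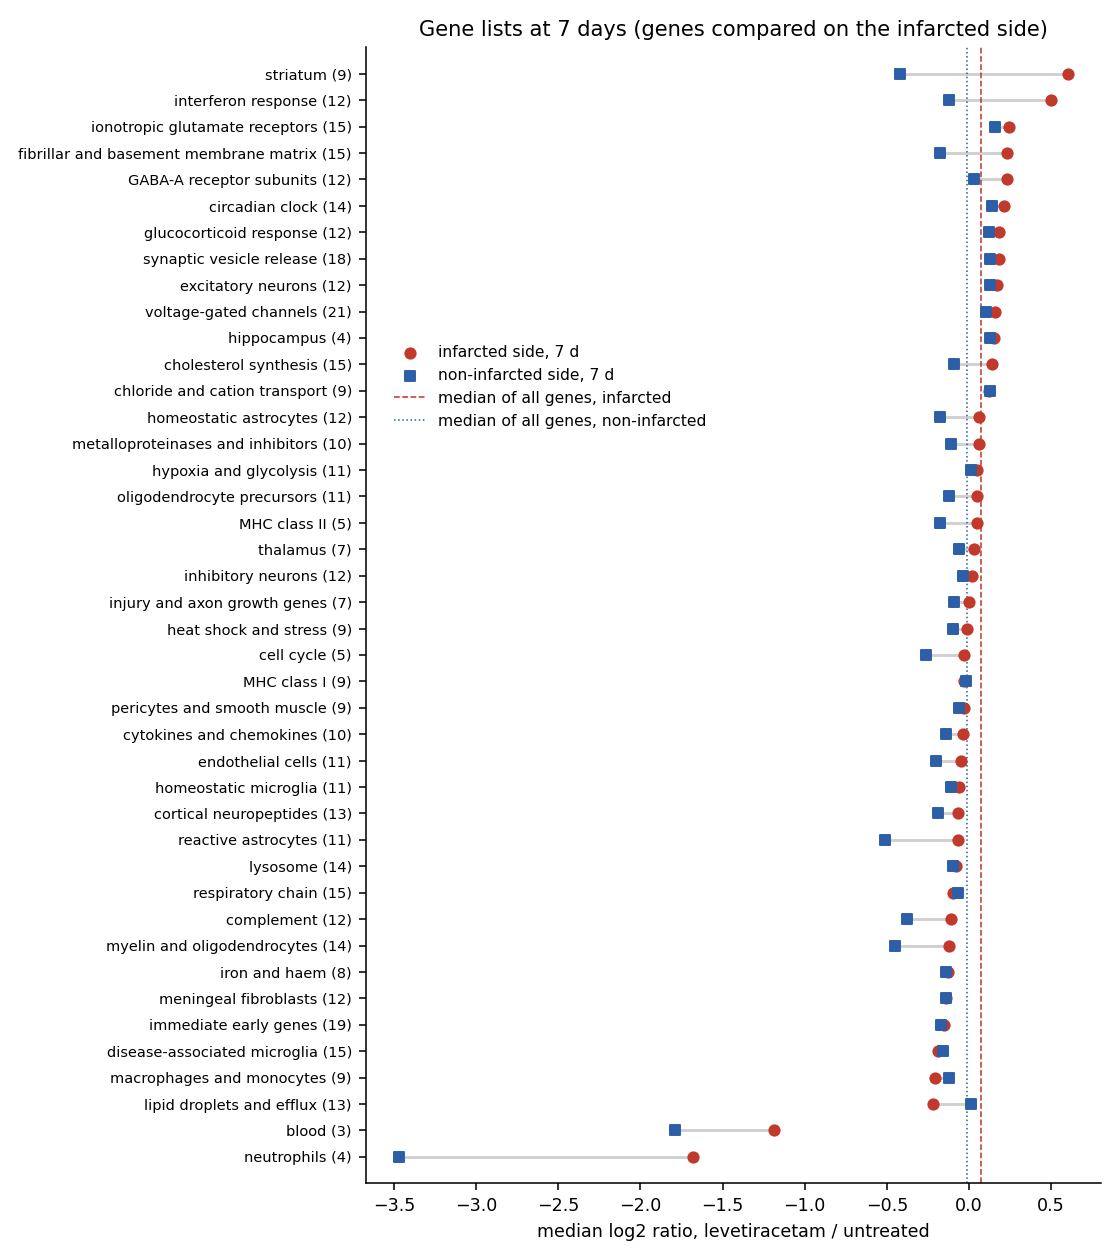
Median log2 ratio of levetiracetam over untreated at 7 days (horizontal axis) for each gene list with at least 3 genes compared (vertical axis, number of genes in parentheses), with circles for the infarcted and squares for the non-infarcted side; vertical lines mark the medians of all genes. The striatum and interferon lists lie at 0.60 and 0.50 on the infarcted side and at -0.42 and -0.12 on the other, and the neutrophil and blood lists lie below 0 on both.

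Ciart and Tef, but not every clock gene, were higher with the drug on both sides. Ciart, a repressor of the circadian clock, was at 14.6 and 22.3 CPM (ratio 1.52, 1.29 to 1.79) and on the non-infarcted side at 17 and 32.0 CPM (ratio 1.88, 1.64 to 2.17). Of 14 clock genes 9 had an interval above 1 and none below; after centring 7 did, and none was past 1.5-fold. Dbp and Tef, transcription factors driven by the clock, had ratios of 1.31 (1.19 to 1.44) and 1.27 (1.2 to 1.34), and of 1.03, with an interval that includes 1, and 1.23 (1.16 to 1.29) on the non-infarcted side. The hour of sampling was not given. In the glucocorticoid list 5 of 12 genes had an interval above 1 and 1 below, 3 and 1 after centring, with Sgk1, a kinase induced by stress hormone, at 102.4 and 130.4 CPM.

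In the remaining lists no gene was past 1.5-fold but those already given and Ecel1. Of 15 cholesterol synthesis genes 8 had an interval above 1 and none below (median 0.14), and 3 after centring (median 0.06). Of 13 genes of lipid droplets and efflux 7 had an interval below 1 and 1 above (median -0.22), and of 8 genes of iron and haem handling 4 and none (median -0.13), with Hmox1, the haem-degrading oxygenase, at 35.9 and 27.9 CPM (ratio 0.776, 0.687 to 0.876). Respiratory chain genes gave 8 intervals below 1 and 4 above among 15, and 11 and 2 after centring. Of 12 meningeal fibroblast genes 4 had an interval below 1, 9 after centring, and Slc6a13, a GABA transporter of meninges, was at 20.9 and 14.3 CPM (ratio 0.684, 0.578 to 0.807). Of 9 pericyte and smooth muscle genes 3 had an interval below 1 and none above, and of 11 endothelial genes 2 and none. No interval of the 5 cell cycle genes compared left out 1 (1 lay below after centring), and of 9 heat shock genes 1 lay below. Hypoxia and glycolysis genes gave 2 intervals below and 1 above among 11, and 3 and 1 after centring. B and plasma cell genes, all under the level limit, summed to 5.42 and 5.39 CPM. Of 9 macrophage and monocyte genes 5 had an interval below 1 and 2 above, and of 12 homeostatic astrocyte genes 1 and 4, which turned to 3 and 1 after centring. Markers of thalamus and hippocampus, other tissues near the cortex, summed to ratios of 1.1 (1.04 to 1.16) and 1.19 (1.13 to 1.26). Of 7 thalamus genes compared 2 had an interval above 1 and 1 below, with a median of 0.03, and of -0.04 after centring. Of 4 hippocampus genes compared 2 had an interval above 1 and none below (median 0.15), and 1 after centring (median 0.07).

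Among non-coding genes, 5 of 145 microRNA genes compared were past 1.5-fold, all lower, and 4 of 84 small nucleolar RNA genes, all lower (0.412% of all genes were). Snord14d and Snord14e, counted among the latter, hold the same tags and cannot be told apart. Snord14c, also counted, was near them in level, at 12.6 and 7.01 CPM against 11.7 and 6.32 CPM. Neighbouring microRNA genes on chromosome 17 were among those lower. Mir125a was at 11.2 and 6.14 CPM (ratio 0.551, 0.43 to 0.703). Chosen after their values were seen, Mirlet7e was at 10.8 and 6.14 CPM and Mir99b at 18.2 and 11.2 CPM. Mir125a and Mirlet7e had 185 and 180 tags untreated and 106 each treated, so the counts may hold the same signal more than once. Capped tags at these genes do not measure the mature microRNA. The mature arms differ in their seeds, bases 2 to 8, shown in capitals (RefSeq, GRCm38.p6).
mmu-miR-99b-5p (chr17:17830194-17830215, + strand): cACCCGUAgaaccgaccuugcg
mmu-let-7e-5p (chr17:17830366-17830387, + strand): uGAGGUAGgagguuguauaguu
mmu-miR-125a-5p (chr17:17830817-17830840, + strand): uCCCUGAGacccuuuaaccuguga
On the non-infarcted side Mir125a was at 7.34 CPM in both libraries.

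Few of the genes past 1.5-fold were past it on the opposite side too, with a larger share among the lower ones. Among 12410 genes compared on both sides, 59 were past 1.5-fold higher on the infarcted and 32 on the non-infarcted side, and 1, Ciart, was on both lists, which is 1.69% of the former and 3.12% of the latter. Ciart was under 1.5-fold on the infarcted side after TMM scaling or centring, at 0.53 on the log2 scale. For lower genes the lists held 32 and 85 and shared 6, namely Camp, S100a8, S100a9, Hbb-bs, Hbb-bt and Ttr, which is 18.8% and 7.06%. Over all 12540 genes compared on the non-infarcted side, 34 (0.271%) were past 1.5-fold higher and 89 (0.71%) lower. At any size, 41 of the 76 genes higher on the infarcted side were above 1 on the other, and 40 of the 54 lower ones below 1. Their median log2 ratios on the non-infarcted side were 0.03 and -0.21, against -0.01 over all genes compared there, so the higher genes lay near all genes. Of the 76 genes higher on the infarcted side, 37 had an untreated value below all other 9 libraries and 11 above them, and 24 a treated value above them. Of the 54 lower ones, 35 had an untreated value above the other 9, and 6 a treated value below them and 12 above. Over all 13100 genes, 2494 had an untreated value below the other 9 and 2170 above, and 1052 a treated value below and 2229 above. The 76 and 54 genes were picked by the ratio of these same 2 libraries, so values outside the range are partly built in. More often than the treated library, the untreated 7-day infarcted library was thus the one outside the range of the others, alone for 34 and 23 of these genes against 10 and 5 for the treated library; over all 13100 genes the counts were 2143 and 760.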

How the data were processed

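CAGE tags were counted per gene in 11 cortical libraries, and the values used are the CPM the authors deposited, tags scaled to a common total per library. GRCm38, HISAT2 2.0.5, BWA 0.7.17 and DESeq2 1.20.0 were listed with no role or order, per the submitters' processing notes; strand handling beyond the strand in each gene name and treatment of tags shared by genes are not given in the sources used here. Every CPM value was a whole multiple of the value of 1 tag (100% within 0.01 tag), so whole tags were recovered. Of 22377 gene IDs, 22335 (99.8%) matched GENCODE M21 on GRCm38; 985 genes sit in sets with near-equal tags and are uncertain.

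Genes whose CPM averaged 5 or more over the pair were compared by the ratio of CPM with an exact Clopper-Pearson 95% interval (scipy 1.17.1), conditional on the sum of the 2 tag counts. Tags carry no molecular identifiers, so intervals and floors cover counting error only. The test over both sides used limma 3.58.1 on log2(CPM + 1) with Benjamini-Hochberg adjustment, and its p-values measure the spread between these libraries; edgeR 4.0.16 and DESeq2 1.42.0 on recovered tags were alternatives. The fit was tested on simulated data. CPM hides any change in total RNA.

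The text names the 12 highest and 12 lowest ratios with well annotated symbols, up to 3 genes a list from 46 lists, and a panel of 17; others are said to be chosen afterwards. The members, lists and tests were chosen with earlier results of these data known. Tag levels are not compared between genes by length, since a tag marks a start and not a length. Some genes of the lists are not reported here by name.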

Additional observations from a re-analysis of the deposited data

Results flagged for a closer look

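For 6 named genes the ratio of levetiracetam over untreated was above 1 on 1 side of the brain and below 1 on the other at 7 days, each with a counting interval that leaves out 1 and past 1.25-fold; 37 of all genes did so. The difference between the sides was not tested, since each ratio rests on 1 library a group. The log2 ratio on the infarcted side minus that on the non-infarcted side was 1.35 for Ecel1, a neuronal endopeptidase induced by nerve injury, 1.37 for Adora2a, 1.08 for Rgs9, 1.13 for Penk and 1.3 for Tac1, all higher in treated than untreated infarcted cortex and lower on the opposite side. It was -0.92 for C1ra, a complement protease, at 7.11 and 5.27 CPM on the infarcted and 3.56 and 5.0 CPM on the non-infarcted side. Adora2a, Rgs9, Penk and Tac1 belong to the striatum list.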

How the results depend on the processing

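The count past 1.5-fold was 76 higher and 54 lower. It was 38 and 84 with TMM factors and with DESeq2 size factors, 36 and 85 with median centring, 429 and 330 at a mean CPM of at least 1, 31 and 23 at 10, 2073 and 2136 with no limit, 2 and 8 past 2-fold, and 44 higher and 36 lower for ratios of CPM + 1. The scalings divide out a shift of 0.07 on the log2 scale. Counting genes that share tags once gave 75 and 49. Asking also that the counting interval leave out 1, chosen after seeing the data, changed neither count. Genes at the level limit hold enough tags that a 1.5-fold ratio already gives such an interval, so this could hardly change them. All 42 list medians moved by less than the SD over all genes compared, 0.19, under the 5 alternatives. For the scalings this was fixed beforehand, since they shift every gene by 0.07. Of 139 named genes, 24 moved beyond their counting interval with TMM factors, 24 with DESeq2 size factors, 26 with median centring and 1, Camp at -2.35, with CPM + 1. Slc12a2 turned from 0.01 to -0.06 with TMM factors and with DESeq2 size factors and to -0.07 with median centring. Of the list medians, 7 near 0 turned from above to below 0 under each of these scalings, and that of cell cycle genes turned from -0.03 to 0.11 at a mean CPM of at least 1.

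The limma fit over both sides called 0 genes higher and 1 lower. DESeq2 called 4 lower, edgeR 1; at a mean CPM of at least 1, and with no limit, 1 gene was called higher; the cause was not tested. Leaving out each library in turn gave 0 to 0 higher and 0 to 1 lower. The call of Hbb-bs was lost without any of the 4 libraries of 7 days or either untreated library of 1 month; the cause was not tested. Counting genes that share tags once, also chosen afterwards, gave 0 and 1. No paired analysis was possible because each group holds 1 library and the labels give no number that ties the sides. Depth limits low genes: 3 tags equal 0.181 and 0.174 CPM in the 2 libraries.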
